A study of Homo sapiens with 24 samples.

Results

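The genes described here are 10 secreted inflammatory signals, measured as RNA in 2 kidney cell lines after knockdown of the histone demethylase KDM5C, the transcription factor YY1, or both. They are the IL6 family cytokines IL6, IL11 and LIF, the interleukin 1 cytokines IL1A and IL1B, the CXC chemokines CXCL1, CXCL2, CXCL3 and CXCL8, and the CC chemokine CCL2. The genes were chosen by symbol, as 10 of the 60675 genes counted in every library, with results of these data already known, and IL11 was selected on its interaction of the knockdowns in HK2 cells. IL11 is therefore given in HK2 cells as a description, with no test, and its values there support nothing. ACHN is a human renal carcinoma line, labelled ccRCC (clear cell renal cell carcinoma), and HK2 is a line of human kidney proximal tubule epithelium. In each line, 4 groups of 3 libraries were compared, namely cells with the control hairpin (shNC), cells with a hairpin against KDM5C (shKDM5C), cells with a hairpin against YY1 (shYY1), and cells with both (Dsh, the double knockdown). All groups, controls included, carry integrated hairpin vectors, and the labels name no other treatment. The double-knockdown cells were made by infecting YY1-depleted cells with a second, GFP-marked vector against KDM5C and selecting on puromycin and green fluorescence, so loss of both factors cannot be told apart from the added vector and selection. The labels do not say which of the designed hairpins a library carries, and number the libraries of a group only as repeats, so p-values measure the spread between these libraries, which may be technical.

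KDM5C removes methyl groups from lysine 4 of histone H3, a mark of promoters and enhancers, and YY1 is a zinc finger protein that activates some promoters and represses others. IL6, IL11 and LIF each bind a receptor of their own and signal through the shared chain gp130, encoded by IL6ST, to JAK kinases and the factor STAT3. IL1A and IL1B act through the receptor IL1R1 and its partner IL1RAP on NF-kB, the factor that drives many inflammatory genes. CXCL1, CXCL2, CXCL3 and CXCL8 (interleukin 8) belong to the ELR chemokines, which attract neutrophils through CXCR1 and CXCR2, while CCL2 attracts monocytes through CCR2. Injured tubule epithelium and renal carcinoma cells are known sources of several of these proteins.

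Counts of read pairs per gene were deposited for all 24 libraries, whose totals ranged from 15926561 to 24272298. Levels are given as CPM (counts scaled to a common library total, with TMM factors over all libraries), and differences as log2 fold changes with their standard error (SE) and a p-value adjusted over all genes tested. Tests were made with the quasi-likelihood method of edgeR, p-values were adjusted by Benjamini-Hochberg, and an adjusted value under 0.05 made a gene called. A member that passed the filter on low counts through only some of the groups compared is given by its values, with no p-value, and is left out of counts and medians over members. KDM5C fell from 70.8 ± 0.560 CPM (mean ± SD, n = 3) to 43.1 ± 1.36 in shKDM5C and 40.6 ± 0.644 in Dsh ACHN cells, and from 191 ± 3.16 to 56.2 ± 19.2 (34.1, 67.5 and 67.1 in the 3 libraries) and 68.2 ± 2.92 CPM in HK2 cells. YY1 fell from 139 ± 3.90 CPM to 76.8 ± 3.57 in shYY1 and 97.0 ± 7.07 in Dsh ACHN cells, and from 208 ± 6.38 to 63.9 ± 2.81 and 74.2 ± 1.78 CPM in HK2 cells, so both factors were reduced and not absent. Replicate 1 of HK2 shKDM5C stood apart, with the fewest counts and a correlation with its group of at most 0.921. In comparisons of the shKDM5C group, members called with it or without it are given both ways. Of 14 kidney epithelium markers, 9 averaged at least 1 CPM in shNC cells of both lines, among them the factor PAX8 (544 CPM in ACHN and 253 in HK2), while the proximal tubule receptors LRP2 and CUBN were under 1 CPM in every group mean. Of 5 clear cell carcinoma markers, 4 averaged at least 1 CPM in ACHN shNC cells, the exception being CA9 with 2, 3 and 2 counts in the libraries. In HK2 shNC cells 3 of the 5 did. The 5 summed to 126 to 128 CPM in ACHN and 86.5 to 99.8 CPM in HK2 shNC libraries. The 8 immune cell markers summed to between 1.07 and 7.96 CPM over all libraries, and the leukocyte gene PTPRC was at or near 0 in each group.

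The 4 CXC chemokine genes lie in a cluster on chromosome 4. On GRCh38, CXCL8 spans chr4:73740506-73743716 and CXCL1 chr4:73869393-73871242 on the plus strand, and CXCL3 spans chr4:74036589-74038807 and CXCL2 chr4:74097035-74099293 on the minus strand. IL6 spans chr7:22725884-22732002, IL11 chr19:55364389-55370463, LIF chr22:30240447-30246851, IL1A chr2:112773915-112784590, IL1B chr2:112829751-112836903 and CCL2 chr17:34255218-34257203. In RefSeq promoters (GRCh38.p14, 250 bases before to 50 after a start site), 8 of the 10 genes had an entry, LIF and CCL2 having none. The following stretches of 30 bases are from the promoters of the CXC chemokines, IL6 and IL11, which did not all hold the same motif. A match to the NF-kB consensus is in capitals in the first 4, and a match to the AP-1 motif in the last pair. CXCL8 and IL11 held 0 matches to this NF-kB consensus, and the first 4 held 0 to the AP-1 motif. CXCL1, CXCL2 and CXCL3 are set first because they differ at few bases.
CXCL1: ctggaactccGGGAATTTCCctggcccggg
CXCL2: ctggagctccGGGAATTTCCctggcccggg
CXCL3: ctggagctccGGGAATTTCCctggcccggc
IL6: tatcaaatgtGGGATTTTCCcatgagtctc
CXCL8: aggaagtgtgaTGACTCAggtttgccctga
IL11: ggcagggagggTGAGTCAggatgtgtcagg
The stretches are read 5′ to 3′ along each gene's strand, at chr4:73869304-73869333 (plus strand), chr4:74099254-74099283 and chr4:74038749-74038778 (minus), chr7:22727117-22727146 and chr4:73740421-73740450 (plus), and chr19:55370541-55370570 (minus). CXCL1 and CXCL2 shared 29 of the 30 bases, CXCL2 and CXCL3 29, and CXCL1 and CXCL3 28. CXCL1 and IL6 shared 14 of the 30, and CXCL8 and IL11 15. The NF-kB match was the same 10 letters in CXCL1, CXCL2 and CXCL3. It began 79 bases before the start site in CXCL1 and CXCL3, 78 in CXCL2 and 73 in IL6. A match to the NF-kB consensus on either strand was held by 11.3% of all 35116 promoters, and one to the AP-1 motif TGANTCA by 7.71%. The AP-1 match began 137 bases before the start site of CXCL8 and 96 before that of IL11. IL1A also held an AP-1 match and, in 1 of its promoter windows, a match to the YY1 motif GCCATNTT (6.58% of promoters), while IL1B held a match to the STAT motif TTCNNNGAA (7.66%). The CXCL2, CXCL3 and IL6 stretches lie inside the longer gene spans of the deposited annotation, and those of CXCL1, CXCL8 and IL11 lie upstream of them. A match describes letters only, and no binding was measured here.

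In the control cells the lines differed in their leading CXC chemokine, CXCL1 being higher in ACHN and CXCL8 in HK2. CXCL1 was at 28.8, 32.4 and 26.5 CPM in the ACHN shNC libraries against 0, 0.110 and 0.360 in HK2, where its raw counts were 0, 2 and 7. It passed the filter through ACHN only, so this difference (log2 fold change 7.44 ± 0.24) is a description. CXCL8 was at 4.72, 5.39 and 4.01 CPM in ACHN against 74.1, 91.7 and 92.6 in HK2 (log2 fold change -4.20 ± 0.10, adjusted p = 7.75e-24), 18.4-fold lower in ACHN. In this comparison 5 of the 6 genes that passed in both lines were called in either direction, where 76.6% of all genes tested were. LIF (0.87 on the log2 scale), IL6 (0.62) and CCL2 (0.58) were higher in ACHN, CXCL2 was lower (-0.37, adjusted p = 0.0203), and CXCL3 was not called (0.35 ± 0.30, adjusted p = 0.288). The CXCL2 call was lost without ACHN shNC replicate 3 (adjusted p = 0.192) or HK2 shNC replicate 3 (adjusted p = 0.326). IL11 was at 2.04, 1.94 and 2.06 CPM in ACHN and 10.1, 11.1 and 7.98 in HK2 shNC cells.

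Per kilobase of exon, the order of levels in ACHN shNC cells was LIF at 45.3 (44.2 to 46.1) CPM per kb (mean, with the range of 3 libraries), CXCL1 at 22.6 (20.4 to 25.0), CXCL2 at 8.25 (6.57 to 9.28), IL6 at 6.65 (6.51 to 6.88), CCL2 at 5.40 (5.02 to 5.59), CXCL8 at 2.07 (1.76 to 2.37), CXCL3 at 0.779 (0.681 to 0.851) and IL11 at 0.754 (0.727 to 0.770). The neighbours CXCL2 and IL6, and CXCL3 and IL11, overlapped. In HK2 shNC cells CXCL8 came first at 37.9 (32.6 to 40.7) CPM per kb, then LIF at 24.6 (24.4 to 25.0), CXCL2 at 10.5 (8.86 to 13.6), IL6 at 4.29 (4.08 to 4.52), IL11 at 3.65 (2.99 to 4.17), CCL2 at 3.58 (2.89 to 4.54) and CXCL3 at 0.606 (0.497 to 0.764). There IL6, IL11 and CCL2 overlapped with their neighbours. In the double knockdowns the first gene per kilobase was CXCL1 in ACHN, at 151 (145 to 161), and CXCL8 in HK2, at 91.3 (88.3 to 96.5), each followed by LIF.

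**Figure D1:**
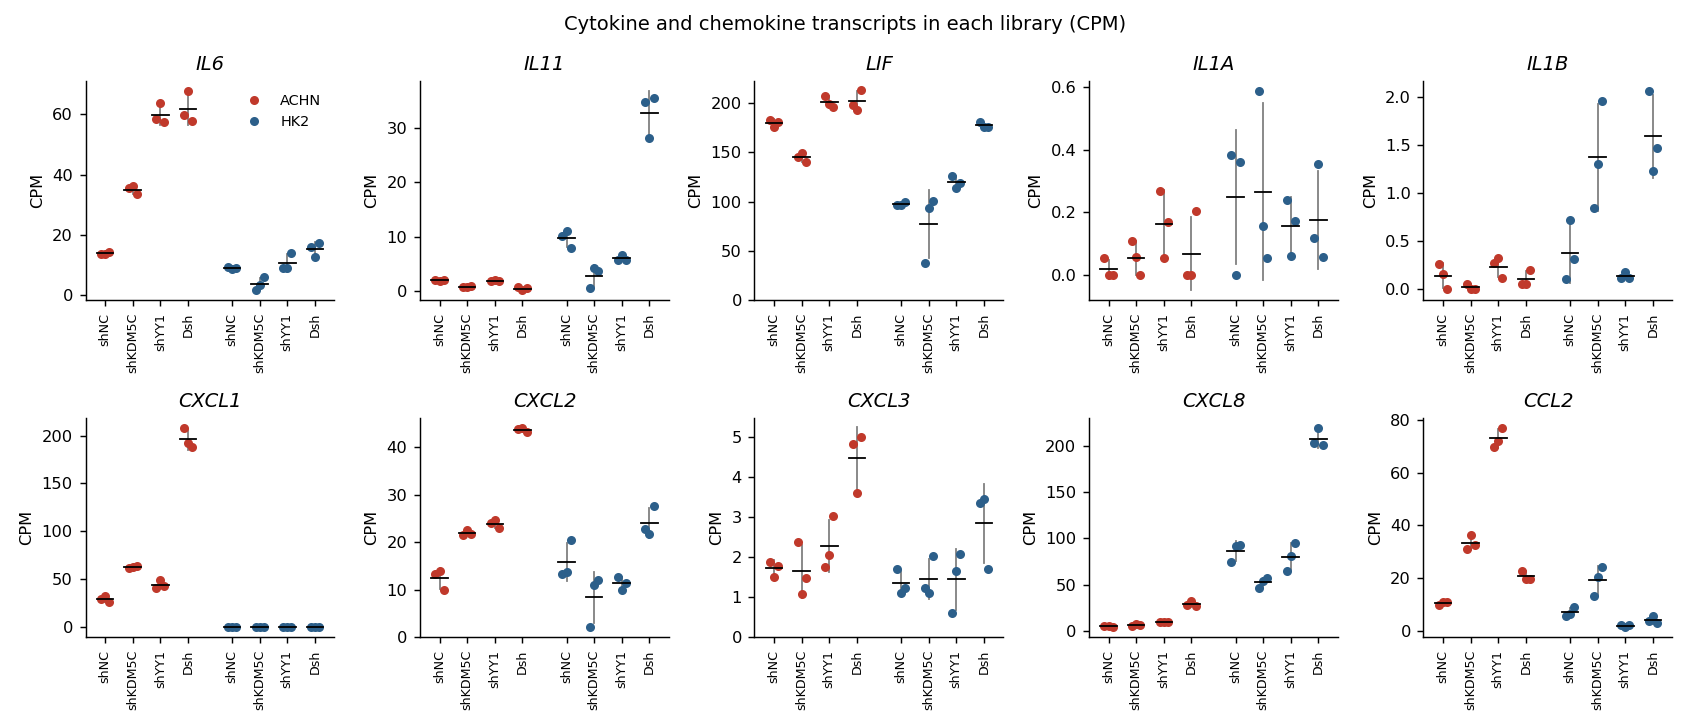
CPM of each gene (vertical axis, linear, its own scale per panel) in the 4 groups of ACHN (red) and HK2 (blue) cells; points are libraries, black lines group means and grey lines 1 SD either side. CXCL1 was highest in ACHN Dsh cells and near 0 in every HK2 library, CXCL8 was highest in HK2 Dsh cells, and CCL2 was highest in ACHN shYY1 cells.

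In ACHN cells each knockdown raised several of these genes at once. Of the 8 genes with enough counts for a test (IL1A and IL1B had too few), 5 rose and 2 fell with shKDM5C, where 28.9% of all genes tested rose and 27.7% fell. With shYY1, 6 rose and 0 fell, against 24.2% and 24.5% of all genes. At an unadjusted p under 0.05 in edgeR, and by DESeq2, 0 fell as well. In the double knockdown all 7 genes that passed in both groups rose (IL11 passed through shNC only), against 30.7% of all genes that rose and 32% that fell. Over the genes that passed in both groups (8, 8 and 7) the median log2 fold change came to 0.64 with shKDM5C, 0.75 with shYY1 and 1.83 in Dsh cells, where the median of all genes tested was -0.01 in each. These 3 comparisons share the shNC libraries.

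IL6, the cytokine that gives the family its name, was at 13.5, 13.5 and 14.2 CPM in the ACHN shNC libraries, 35.4, 36.0 and 33.4 with shKDM5C, 58.4, 63.7 and 57.5 with shYY1 and 59.8, 67.8 and 57.7 in the double knockdown. Every knockdown library lay above every control library, and the shYY1 and Dsh libraries overlapped. IL6 rose 2.52-fold with shKDM5C (log2 fold change 1.33 ± 0.07, adjusted p = 2.07e-14), 4.29-fold with shYY1 (log2 fold change 2.10 ± 0.06, adjusted p = 3.16e-24) and 4.51-fold in Dsh cells (log2 fold change 2.17 ± 0.08, adjusted p = 3.24e-14). IL6 overlaps the antisense gene IL6-AS1, and since strand was not used in counting, reads from the pair could not be told apart. LIF, which holds stem cells undifferentiated in mouse culture and acts on gp130 through LIFR, moved little: it was at 183, 175 and 181 CPM in shNC, 145, 149 and 140.1 in shKDM5C, 207, 199 and 196 in shYY1 and 198, 193 and 213 in Dsh libraries. It fell with shKDM5C (log2 fold change -0.33 ± 0.03, adjusted p = 1.26e-08), and rose with shYY1 (log2 fold change 0.14 ± 0.03, adjusted p = 4.90e-04) and in Dsh cells (log2 fold change 0.17 ± 0.05, adjusted p = 0.00355). IL11, a cytokine of epithelial and stromal cells linked to fibrosis, was low and did not rise in any ACHN knockdown. Its counts were 39, 36 and 38 in shNC, 14, 13 and 18 in shKDM5C, 37, 37 and 34 in shYY1 and 15, 3 and 14 in Dsh libraries. IL11 fell 2.46-fold with shKDM5C (log2 fold change -1.30 ± 0.28, adjusted p = 2.98e-04), while with shYY1 it was not called (-0.06 ± 0.23, adjusted p = 0.845). In Dsh cells its log2 fold change was -1.95 ± 0.37, and all 3 libraries lay below the controls.

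IL1A and IL1B, the ligands that start many NF-kB responses, were barely detected in ACHN cells. IL1A had between 0 and 5 counts and IL1B between 0 and 6 counts in each of the 12 libraries, and neither passed the filter on low counts. A library with 0 counts allows up to 3 counts, which is 0.124 to 0.188 CPM over the 24 library totals, for counting error only. IL1A had 1, 0 and 0 counts in shNC and 5, 1 and 3 in shYY1 libraries, which did not overlap as CPM, and was not tested.

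The ELR chemokines rose furthest in the double knockdown. CXCL1 was at 28.8, 32.4 and 26.5 CPM in shNC, 61.7, 62.9 and 63.7 in shKDM5C, 40.6, 49.5 and 42.8 in shYY1 and 208, 192 and 188 in Dsh libraries, and the 4 groups did not overlap. It rose 2.12-fold with shKDM5C (log2 fold change 1.09 ± 0.06, adjusted p = 7.28e-14), 1.49-fold with shYY1 (log2 fold change 0.58 ± 0.07, adjusted p = 1.56e-08) and 6.73-fold in Dsh cells (log2 fold change 2.75 ± 0.07, adjusted p = 1.10e-16). CXCL2, its close paralog, was at 13.4, 13.9 and 9.85 CPM in shNC, 21.6, 22.6 and 21.7 in shKDM5C, 24.1, 24.7 and 22.9 in shYY1 and 43.9, 44.1 and 43.3 in Dsh libraries. Both single knockdowns lay above the controls and below the double knockdown, with log2 fold changes of 0.81 ± 0.10, adjusted p = 9.82e-08, of 0.93 ± 0.09, adjusted p = 1.37e-10, and, in Dsh cells, of 1.83 ± 0.10, adjusted p = 8.55e-12.

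CXCL3, the third of the paralogs, was low, at 1.89, 1.51 and 1.79 CPM in shNC and 4.84, 3.60 and 5.01 in Dsh libraries. It rose 2.61-fold in Dsh cells (log2 fold change 1.39 ± 0.21, adjusted p = 1.27e-05), and in the single knockdowns its libraries overlapped the controls and no call was made (-0.09 ± 0.28, adjusted p = 0.813 for shKDM5C, and 0.37 ± 0.25, adjusted p = 0.223 for shYY1). CXCL8, which binds both CXCR1 and CXCR2, was at 4.72, 5.39 and 4.01 CPM in shNC, 5.69, 7.37 and 6.64 in shKDM5C, 9.71, 9.64 and 9.29 in shYY1 and 28.4, 31.9 and 26.4 in Dsh libraries. It rose 6.14-fold in Dsh cells (log2 fold change 2.62 ± 0.12, adjusted p = 7.43e-13) and 2.00-fold with shYY1 (log2 fold change 1.00 ± 0.13, adjusted p = 5.48e-08). The smaller rise with shKDM5C (log2 fold change 0.46 ± 0.15, adjusted p = 0.0107) lost its call without shNC replicate 3 (adjusted p = 0.0691) or shKDM5C replicate 2 (adjusted p = 0.0565). CXCL1, CXCL2 and CXCL3 are near-identical in places: 5.33% of the 50-base windows of CXCL1 transcripts, 10.1% of those of CXCL2 and 5.26% of those of CXCL3 occur exactly in another of the 3, though 0 windows of 150 bases, the read length, do.

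CCL2 took another order of the groups. It was at 9.96, 11.1 and 11.1 CPM in shNC, 31.1, 36.5 and 32.6 in shKDM5C, 69.8, 72.2 and 77.1 in shYY1 and 22.9, 19.5 and 19.8 in Dsh libraries, and no 2 groups overlapped. CCL2 rose 3.08-fold with shKDM5C (log2 fold change 1.62 ± 0.08, adjusted p = 7.42e-15) and 6.71-fold with shYY1 (log2 fold change 2.75 ± 0.07, adjusted p = 2.88e-27), and only 1.94-fold in Dsh cells (log2 fold change 0.96 ± 0.10, adjusted p = 1.04e-07). The double knockdown was thus above the control and below each single knockdown.

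**Figure D2:**
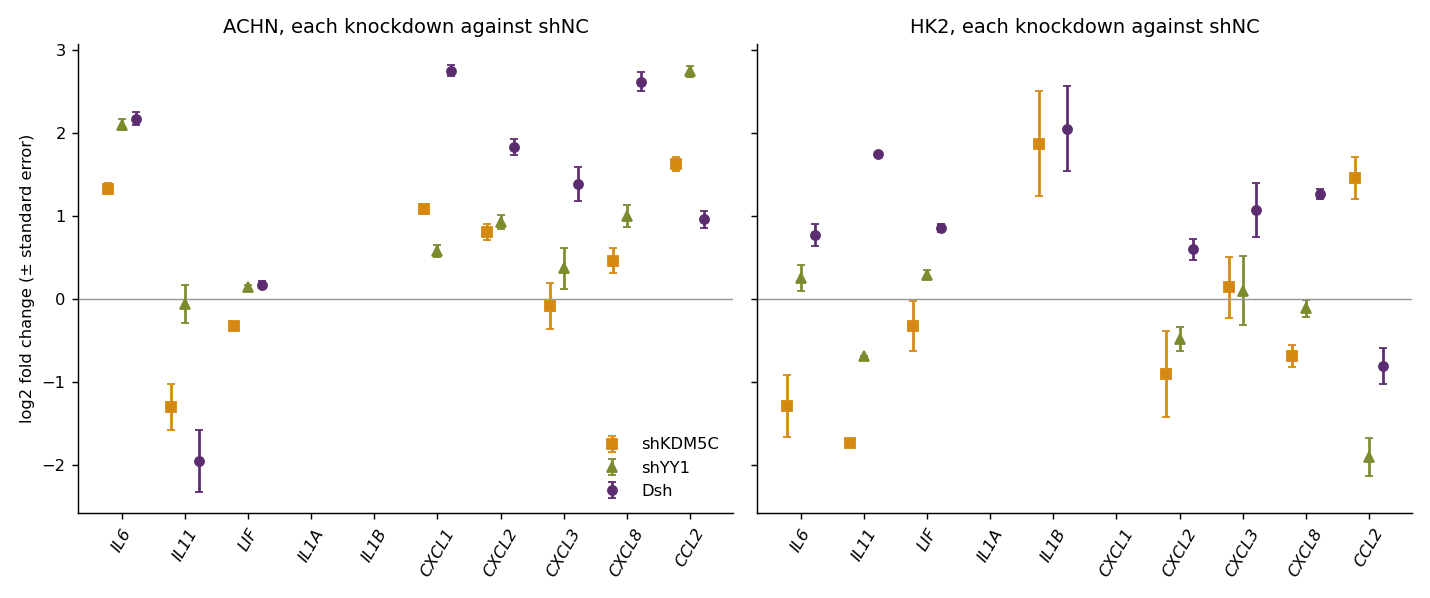
Log2 fold change against shNC (vertical axis) of each gene in ACHN (left) and HK2 (right) cells, for shKDM5C (squares), shYY1 (triangles) and the double knockdown Dsh (circles); bars are 1 SE, IL11 in HK2 has no bar because it was not tested, and genes with too few counts have no point. In ACHN cells CXCL1 and CXCL8 were highest in Dsh and CCL2 in shYY1, and in HK2 cells CCL2 had opposite signs with shKDM5C and shYY1.

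The double knockdown was next set against each single knockdown and against the sum of the 2 single effects. Against shKDM5C, all 7 genes that passed in both groups were called in either direction, where 62.5% of all genes were, and against shYY1 5 of 7, where 64.6% were. The median log2 fold change of the 7 was 1.02 against shKDM5C and 0.88 against shYY1, with 0.02 and 0.00 over all genes. The 4 chemokines CXCL1, CXCL2, CXCL3 and CXCL8 were higher in Dsh than in both, from 1.02 (CXCL2) to 2.16 (CXCL8) on the log2 scale against shKDM5C and from 0.88 (CXCL2) to 2.15 (CXCL1) against shYY1. CCL2 was lower in Dsh than in shKDM5C (log2 fold change -0.66 ± 0.09, adjusted p = 3.46e-06) and than in shYY1 (log2 fold change -1.81 ± 0.07, adjusted p = 1.44e-12). IL6 and LIF were higher than in shKDM5C (0.84 and 0.50) and not called against shYY1 (0.05 ± 0.07, adjusted p = 0.519, and 0.01 ± 0.05, adjusted p = 0.803). IL11, which passed through the single knockdowns only, was at -1.91 ± 0.38 against shYY1 and -0.66 ± 0.45 against shKDM5C.

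The interaction is the double-knockdown change minus the sum of the single changes, so 0 means that the log2 changes add up. In ACHN cells 6 of the 7 genes that passed in all 4 groups had a called interaction, where 55.6% of all genes did, and the median was 0.33 against 0.01 over all genes. The double knockdown exceeded the sum for CXCL8 (interaction 1.13 ± 0.17, adjusted p = 3.75e-06), CXCL1 (1.06 ± 0.10, adjusted p = 7.61e-10), CXCL3 (1.08 ± 0.37, adjusted p = 0.0156) and LIF (0.33 ± 0.06, adjusted p = 3.09e-05). It fell short of the sum for IL6 (-1.29 ± 0.10, adjusted p = 2.60e-11) and most for CCL2 (-3.44 ± 0.11, adjusted p = 1.57e-18), whose double-knockdown level was 10.8-fold under that of added log2 changes. CXCL2 was close to the sum (0.06 ± 0.12, adjusted p = 0.687), with a 95% interval of -0.18 to 0.30, and the value of IL11 was -0.62 ± 0.47. The CXCL3 interaction lost its call without shKDM5C replicate 2 (adjusted p = 0.0542).

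**Figure D3:**
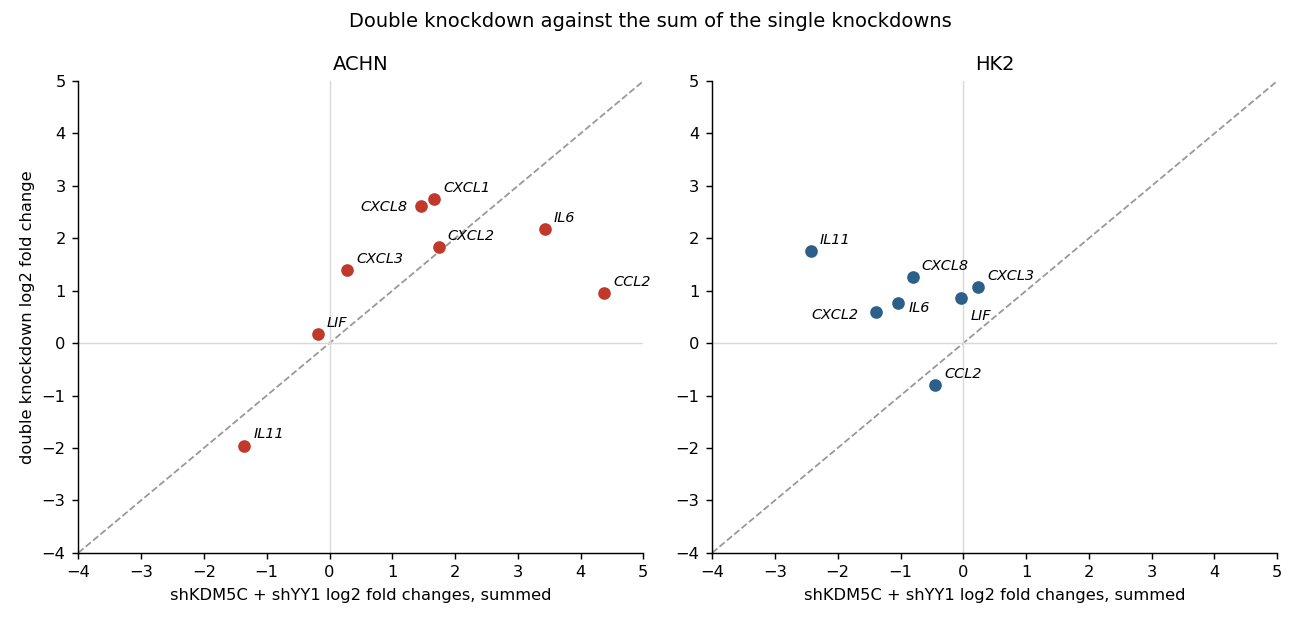
Log2 fold change of the double knockdown (vertical axis) against the sum of the shKDM5C and shYY1 log2 fold changes (horizontal axis) in ACHN (left) and HK2 (right) cells; each point is a gene and the dashed line marks equality. CCL2 and IL6 lay below the line in ACHN cells, with interactions of -3.44 and -1.29, and IL11, the gene selected on this contrast, lay farthest above it in HK2 cells.

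In HK2 cells KDM5C knockdown alone gave few calls, in a group with the library that stood apart. Of the 6 genes that passed in both groups, 1 (CCL2) rose and 0 fell, where 0.668% of all genes rose and 0.656% fell, and the median log2 fold change was -0.51 against 0.00 over all genes. At an unadjusted p under 0.05 in edgeR 1 rose and 2 fell, and DESeq2 called CCL2 higher and both IL6 and CXCL8 lower. CCL2 was at 5.74, 6.57 and 9.01 CPM in shNC and 13.3, 20.4 and 24.2 in shKDM5C libraries, which did not overlap (log2 fold change 1.46 ± 0.25, adjusted p = 0.0475). The call was lost when any 1 of the 5 libraries other than shKDM5C replicate 1 was left out (adjusted p 0.147 to 0.282). IL6 was at 9.35, 8.44 and 8.85 CPM in shNC and 1.70, 3.18 and 5.84 in shKDM5C libraries (-1.29 ± 0.37, adjusted p = 0.187), and CXCL8 at 74.1, 91.7 and 92.6 and 46.6, 53.6 and 56.6 (-0.69 ± 0.13, adjusted p = 0.0647). With the library kept, CXCL2 was at -0.90 ± 0.52, adjusted p = 0.425. Without replicate 1, 22.3% of all genes were called in either direction, and 4 of the 6 members were: CCL2 (1.63 ± 0.15, adjusted p = 1.03e-08) was higher, and IL6 (-0.99 ± 0.20, adjusted p = 6.63e-04), CXCL8 (-0.66 ± 0.08, adjusted p = 6.87e-07) and CXCL2 (-0.47 ± 0.16, adjusted p = 0.0308) were lower. LIF was at 37.6, 93.3 and 101 CPM in the shKDM5C libraries against 96.8, 96.9 and 99.4 in shNC, with replicate 1 alone well below the controls. IL1B passed through shKDM5C only, at 13, 25 and 36 counts there, with a log2 fold change of 1.87 ± 0.63, or 2.08 ± 0.57 without replicate 1.

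With YY1 knockdown in HK2 cells, 1 of 6 genes tested rose and 2 fell, where 14.3% of all genes rose and 14.7% fell. The median log2 fold change of the 6 was -0.01, against 0.01 over all genes. CCL2 fell 3.75-fold, from 5.74, 6.57 and 9.01 to 2.08, 1.47 and 2.14 CPM (log2 fold change -1.91 ± 0.23, adjusted p = 1.19e-06). LIF rose from 96.8, 96.9 and 99.4 to 126, 114 and 119 CPM (log2 fold change 0.29 ± 0.05, adjusted p = 2.86e-04). CXCL2 fell from 13.3, 13.8 and 20.4 to 12.7, 10.0 and 11.4 CPM (log2 fold change -0.48 ± 0.15, adjusted p = 0.016), a call that was lost without shNC replicate 3 (adjusted p = 0.205) or shYY1 replicate 2 (adjusted p = 0.0539). IL6 (0.25 ± 0.16, adjusted p = 0.265), CXCL3 (0.10 ± 0.41, adjusted p = 0.894) and CXCL8 (-0.11 ± 0.10, adjusted p = 0.428) were not called. With all 12 HK2 libraries in a fit, which adds the spread of the shKDM5C group, only CCL2 kept its call.

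The double knockdown in HK2 cells raised 5 of the 6 genes that passed in both groups and lowered 1, where 25.5% of all genes rose and 24.3% fell. The median log2 fold change of the 6 was 0.81, against 0.00 over all genes tested. CXCL8 was at 74.1, 91.7 and 92.6 CPM in shNC and 203, 219 and 201 in Dsh libraries, a 2.41-fold rise (log2 fold change 1.27 ± 0.06, adjusted p = 3.80e-17) to the highest level of CXCL8 in any group. LIF rose 1.81-fold to 180.3, 176 and 176 CPM (log2 fold change 0.86 ± 0.05, adjusted p = 8.75e-16). IL6 rose 1.70-fold, to 15.7, 12.6 and 17.2 CPM (log2 fold change 0.77 ± 0.13, adjusted p = 1.53e-05), and CXCL2 1.52-fold, to 22.8, 21.7 and 27.7 CPM (log2 fold change 0.60 ± 0.13, adjusted p = 2.21e-04). In each of these 4 genes the Dsh libraries lay above all controls.

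The other HK2 genes were low. IL1B, an interleukin that is made as a precursor and cut by caspase 1, had 2, 13 and 6 counts in shNC and 35, 21 and 26 in Dsh libraries, or 0.109, 0.717 and 0.309 and 2.06, 1.23 and 1.47 CPM. It passed the filter through Dsh only, and its log2 fold change of 2.05 ± 0.51 is a description. CXCL3 rose 2.10-fold to 3.36, 3.46 and 1.70 CPM (log2 fold change 1.07 ± 0.33, adjusted p = 0.0075), and its call was lost without Dsh replicate 1 (adjusted p = 0.0502) or Dsh replicate 2 (adjusted p = 0.0545). CCL2 fell 1.75-fold, from 5.74, 6.57 and 9.01 to 3.89, 5.52 and 2.83 CPM (log2 fold change -0.80 ± 0.22, adjusted p = 0.00236). CXCL1 had 0 to 7 counts and IL1A 0 to 9 counts in every HK2 library, and neither was tested. With all 12 HK2 libraries in a fit, the calls of IL6, CXCL2 and CXCL3 were lost.

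IL11, given here without a test, spanned the HK2 libraries from under 1 to over 35 CPM. It was at 10.1, 11.1 and 7.98 CPM in shNC, 0.587, 4.32 and 3.66 in shKDM5C, 5.82, 6.65 and 5.66 in shYY1 and 34.7, 28.2 and 35.4 in Dsh libraries. The 4 groups were in the order Dsh, shNC, shYY1 and shKDM5C with no overlap, so each single knockdown lay under the control and the double knockdown above it. The log2 fold change against shNC was -1.74 with shKDM5C, -0.69 with shYY1 and 1.75 in Dsh, which makes an interaction of 4.16. Without shKDM5C replicate 1 the shKDM5C change was -1.29 and the interaction 3.74. These values chose the gene.

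Against the single knockdowns, the HK2 double knockdown was higher for most of these genes. Against shYY1, all 5 genes that passed in both groups were called, where 47.7% of all genes were, and all were higher in Dsh, by 0.52 (IL6) to 1.38 (CXCL8) on the log2 scale. The IL6 libraries overlapped, and its call was lost without shYY1 replicate 1, shYY1 replicate 2 or Dsh replicate 3 (adjusted p 0.0556 to 0.0732). With all 12 HK2 libraries in a fit, the calls of IL6, LIF and CXCL2 against shYY1 were lost, and those of CXCL8 and CCL2 were kept. IL1B and CXCL3 passed through Dsh only, with log2 fold changes of 3.47 ± 0.55 and 0.97 ± 0.38. Against shKDM5C, 4 of 7 were called in either direction, where 11.9% of all genes were: CXCL8 (1.96 ± 0.12, adjusted p = 5.90e-04), IL6 (2.05 ± 0.38, adjusted p = 0.0167) and LIF (1.18 ± 0.31, adjusted p = 0.0483) were higher in Dsh and CCL2 was lower (-2.27 ± 0.30, adjusted p = 0.0051). Without shKDM5C replicate 1, 43.3% of all genes and 5 of the 7 members were called, with CXCL2 added (1.07 ± 0.13, adjusted p = 3.17e-07), and the log2 fold changes of the others were 1.92 (CXCL8), 1.76 (IL6), 0.87 (LIF) and -2.44 (CCL2). The IL6 call was lost without shKDM5C replicate 2 or any Dsh library (adjusted p 0.0538 to 0.0904), and the LIF call without shKDM5C replicate 2, shKDM5C replicate 3 or any Dsh library (adjusted p 0.0577 to 0.164), which left 2 of the 4 without shKDM5C replicate 2 or any Dsh library.

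The interaction in HK2 cells was called for 3 of the 6 genes that passed in all 4 groups, where 9.61% of all genes were called in either direction, and the median was 1.34 against -0.02. CXCL8 (2.07 ± 0.19, adjusted p = 6.14e-05), CXCL2 (1.97 ± 0.55, adjusted p = 0.0399) and IL6 (1.80 ± 0.43, adjusted p = 0.0203) exceeded the sum of the single changes. LIF (0.89 ± 0.33, adjusted p = 0.113), CXCL3 (0.83 ± 0.62, adjusted p = 0.441) and CCL2 (-0.36 ± 0.40, adjusted p = 0.617) were not called. Without shKDM5C replicate 1, 28.7% of all genes and 4 of the members were called: CXCL8 (2.04 ± 0.14, adjusted p = 2.29e-12), CXCL2 (1.56 ± 0.21, adjusted p = 1.35e-06), IL6 (1.52 ± 0.28, adjusted p = 1.03e-04) and LIF (0.59 ± 0.08, adjusted p = 4.69e-07). With that library kept, the call of IL6 was lost on leaving out shNC replicate 1 or 3, shYY1 replicate 1 or 2, or Dsh replicate 1 or 3 (adjusted p 0.0508 to 0.0602), and that of CXCL2 on leaving out any shNC, shYY1 or Dsh library (adjusted p 0.0685 to 0.112). CXCL8 kept its call in all 9 of those fits and was the only gene called in 6 of them.

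The effect of the double knockdown was then compared between the lines, as the log2 fold change in ACHN minus that in HK2 cells. Of the 6 genes that passed in all 4 groups, 5 differed, where 46% of all genes did. CCL2 rose in ACHN and fell in HK2 cells (difference 1.79 ± 0.24, adjusted p = 3.74e-07). IL6 (1.42 ± 0.15, adjusted p = 4.39e-09), CXCL8 (1.37 ± 0.14, adjusted p = 2.48e-09) and CXCL2 (1.25 ± 0.18, adjusted p = 1.44e-06) rose in both lines and by more in ACHN. LIF rose by more in HK2 (-0.66 ± 0.06, adjusted p = 1.20e-09). CXCL3 was not called (0.33 ± 0.39, adjusted p = 0.521). CXCL1 passed through ACHN only, with HK2 counts that summed to 9 in shNC and 12 in Dsh libraries, and its difference of 2.26 ± 0.78 was 0.81 without HK2 shNC replicate 3. IL1B passed through HK2 Dsh only, and its difference was -2.37 ± 1.13. IL11 differed in sign, at -1.95 in ACHN and 1.75 in HK2, and this was not tested.

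Several receptors of the IL6 family rose in the double knockdowns, and those of the chemokines were at or near 0. IL6R, the receptor that IL6 binds, was at 11.9, 10.2 and 11.96 CPM in ACHN shNC and 50.8, 50.2 and 56.2 in Dsh libraries (log2 fold change 2.21 ± 0.08, adjusted p = 5.77e-14), and at 19.8, 19.6 and 20.4 and 51.6, 45.0 and 52.3 CPM in HK2 cells (log2 fold change 1.31 ± 0.08, adjusted p = 1.66e-14). In the single knockdowns IL6R averaged 47.2 CPM with shKDM5C and 27.1 with shYY1 in ACHN cells, and 29.7 and 13.9 in HK2 cells. IL6ST (gp130) rose in Dsh cells of ACHN (0.79 ± 0.05, adjusted p = 2.48e-10) and HK2 (0.52 ± 0.05, adjusted p = 7.59e-11), as did OSMR, the receptor of oncostatin M (0.67 ± 0.05, adjusted p = 1.39e-09, and 0.99 ± 0.05, adjusted p = 1.35e-17). LIFR fell in ACHN Dsh cells (-0.35 ± 0.06, adjusted p = 7.00e-05) and was not called in HK2 (0.23 ± 0.13, adjusted p = 0.14). IL11RA was at 3.70 ± 0.676 CPM in ACHN and 0.705 ± 0.256 in HK2 shNC cells and was not called in either double knockdown. IL1R1 rose in ACHN Dsh cells (0.33 ± 0.11, adjusted p = 0.0117) and was not called in HK2 (0.27 ± 0.25, adjusted p = 0.405). CXCR1 and CCR2 had 0 counts in all 24 libraries, which allows up to 3 counts in each, and CXCR2 and the receptor antagonist IL1RN were under 0.2 CPM in every group mean. Of the 9 chemokine receptors listed, only ACKR2 in ACHN cells had enough counts for a test in a double knockdown (-0.58 ± 0.58, adjusted p = 0.405).

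Genes of the pathways around these ligands were counted in lists written with earlier results of these data known. Counts and medians cover the genes tested, of which some passed the filter on low counts through 1 group only. Such a gene leans toward the group in which it passed, and their number in each list was not counted. The list counts and medians are therefore descriptions. Beside each count in the double knockdowns stand the shares of all genes given above, 30.7% higher and 32% lower in ACHN and 25.5% and 24.3% in HK2 cells. Of 15 IL6 family receptor and signalling genes, 14 were tested in the double knockdowns: in ACHN 9 rose, 2 fell and the other 3 were not called (median log2 fold change 0.53), and in HK2 8 rose, 1 fell and the other 5 were not called (median log2 fold change 0.32), where the median over all genes was -0.01 and 0.00. The feedback inhibitors SOCS1 (2.46 ± 0.20, adjusted p = 4.38e-09) and SOCS3 (1.42 ± 0.09, adjusted p = 9.30e-11) rose in ACHN Dsh cells. SOCS3 averaged 23.0 CPM in shNC, 53.9 in shKDM5C, 33.1 in shYY1 and 61.0 in Dsh ACHN cells. SOCS1 averaged 1.32, 1.51, 1.16 and 7.25 CPM in the same order. Of 18 NF-kB subunits and feedback genes, 17 were tested, and in ACHN Dsh cells 16 rose and the other 1 was not called (median log2 fold change 0.94). In HK2 Dsh cells 12 rose and the other 5 were not called (median log2 fold change 0.80). Named by size, BIRC3, an inhibitor of cell death (3.11 ± 0.07, adjusted p = 9.96e-17), the adhesion molecule ICAM1 (2.82 ± 0.19, adjusted p = 2.42e-10) and the kinase IRAK2 (2.24 ± 0.07, adjusted p = 5.65e-15) led in ACHN. TRAF1 (2.65 ± 0.35, adjusted p = 2.11e-07), TNFAIP3 (A20, 1.79 ± 0.07, adjusted p = 5.41e-20) and IRAK2 (1.77 ± 0.08, adjusted p = 2.55e-17) led in HK2. In ACHN shKDM5C cells 13 of the 17 rose and 1 fell (median 0.39), where 28.9% of all genes rose and 27.7% fell, and in ACHN shYY1 cells 12 rose and 2 fell (median 0.25), where 24.2% and 24.5% did. In HK2 shYY1 cells 1 rose and 3 fell (median -0.10), where 14.3% and 14.7% of all genes did. In HK2 shKDM5C cells, with the library that stood apart kept, 1 rose, 0 fell and the other 16 were not called (median 0.11). There 0.668% of all genes rose and 0.656% fell.

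Of 17 other inflammatory cytokines, 9 were tested in ACHN Dsh cells, where 4 rose, 1 fell and the other 4 were not called (median log2 fold change -0.06), and 10 in HK2 Dsh cells, where 7 rose and the other 3 were not called (median log2 fold change 0.97). Among the genes that averaged at least 5 CPM in the higher group, CSF2, GDF15 and CSF1 led by size in both lines. CSF2 (GM-CSF) was at 1.05, 0.539 and 1.03 CPM in ACHN shNC and 18.6, 14.8 and 15.7 in Dsh libraries (log2 fold change 4.22 ± 0.19, adjusted p = 7.10e-13), and at 2.52, 3.86 and 4.84 and 24.6, 24.6 and 25.9 CPM in HK2 cells (log2 fold change 2.73 ± 0.15, adjusted p = 8.73e-16). GDF15, a stress-induced member of the TGF-beta superfamily, rose (2.75 ± 0.07, adjusted p = 3.16e-16, and 2.23 ± 0.06, adjusted p = 1.03e-23), as did CSF1 (M-CSF; 2.20 ± 0.06, adjusted p = 5.72e-16, and 1.61 ± 0.06, adjusted p = 1.86e-20). TNF was under 0.5 CPM in the shNC and Dsh cells of both lines.

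Of 18 other chemokines, 3 were tested in ACHN Dsh cells and all 3 fell, namely CXCL16, CX3CL1 and CCL28 (median log2 fold change -0.73). Of 5 tested in HK2 Dsh cells CXCL5 and CCL20 rose, CXCL16 and CX3CL1 fell and CCL28 was not called (median log2 fold change -0.05). The names other than CXCL5 were chosen after their values were seen. CXCL5, an ELR chemokine of the same cluster, was at 51.7, 65.9 and 52.8 CPM in HK2 shNC and 136, 165 and 148 in Dsh libraries (log2 fold change 1.40 ± 0.07, adjusted p = 2.35e-16), while ACHN shNC libraries had 0.0709 CPM on average. Among the other IL6 family ligand genes, EBI3 (1.82 ± 0.11, adjusted p = 9.07e-11) and CTF1 (1.29 ± 0.13, adjusted p = 4.20e-08) rose in ACHN Dsh cells.

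Of 20 genes of IL1 ligands, receptors and processing, 13 were tested in ACHN Dsh cells, where 8 rose, 3 fell and the other 2 were not called (median log2 fold change 0.32), led by CASP1, the protease that cuts IL1B (2.48 ± 0.19, adjusted p = 1.97e-09). In HK2 Dsh cells 11 were tested, where 1 rose, 3 fell and the other 7 were not called (median log2 fold change -0.02). There IL1RAP rose (1.72 ± 0.06, adjusted p = 1.81e-21), the adaptor MYD88 fell (-1.05 ± 0.10, adjusted p = 3.71e-10), and CASP1 had at most 1 count in a shNC or Dsh library. All 12 AP-1 and C/EBP factors were tested. In ACHN Dsh cells 6 rose, 2 fell and the other 4 were not called (median log2 fold change 0.08), CEBPB (1.87 ± 0.08, adjusted p = 2.32e-13) and CEBPD (1.78 ± 0.05, adjusted p = 5.79e-16) leading. In HK2 Dsh cells 9 rose and the other 3 were not called (median log2 fold change 0.65), FOSB (2.00 ± 0.14, adjusted p = 2.75e-13) and FOSL1 (1.71 ± 0.07, adjusted p = 7.78e-19) leading. A further list held 8 factors that act on the stability of cytokine mRNAs, not sorted by the direction in which they act. In ACHN Dsh cells 4 rose, 1 fell and the other 3 were not called (median log2 fold change 0.33). HNRNPD (AUF1) fell (-1.49 ± 0.05, adjusted p = 4.42e-14) and the RNase ZC3H12A rose (1.12 ± 0.08, adjusted p = 2.94e-10). In HK2 Dsh cells 4 rose and 4 fell (median log2 fold change 0.14).

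**Figure D4:**
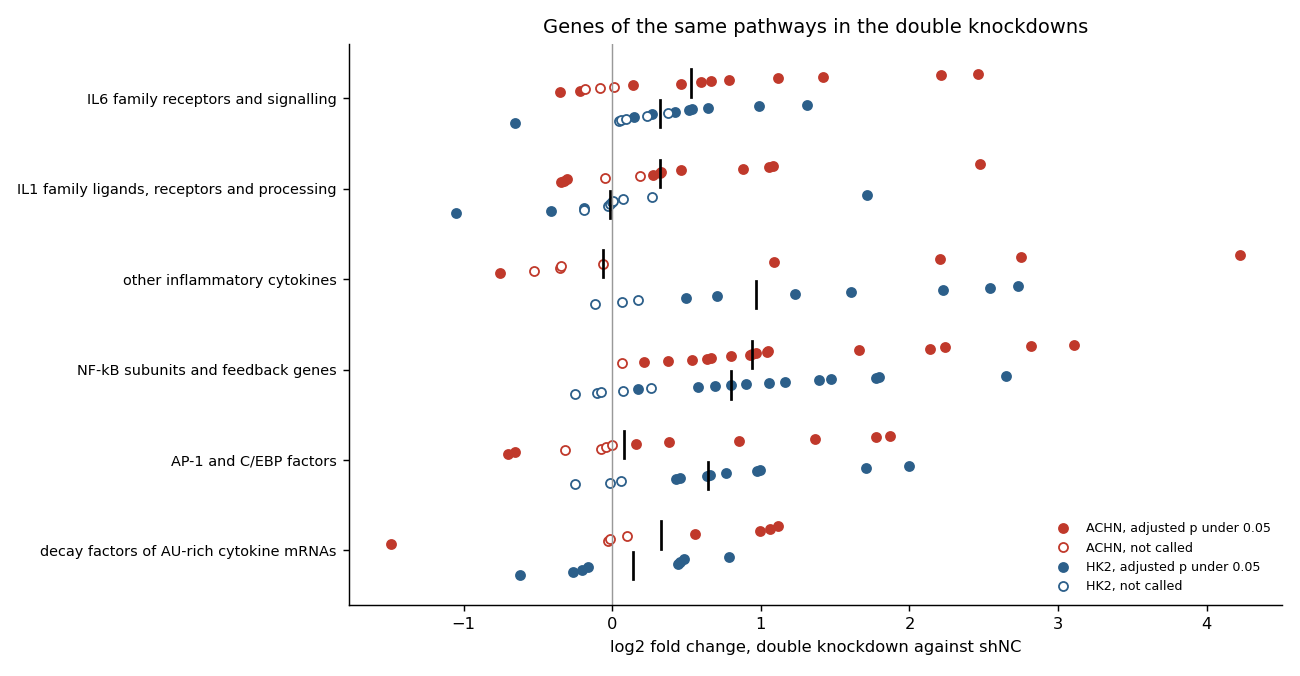
Log2 fold change of the double knockdown against shNC (horizontal axis) for the tested genes of 6 pathway lists (rows) in ACHN (red) and HK2 (blue) cells; filled points were called, open points were not, and black bars are list medians. Of the 17 NF-kB genes tested in each line, 16 rose in ACHN and 12 in HK2 cells.

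Markers of other cell types also moved in the double knockdowns, and their part in these results was not tested. In ACHN cells the 6 fibroblast markers summed to 586 to 637 CPM in shNC and 135 to 152 in Dsh libraries, nearly all of it COL1A1, with LUM at 0 in both. In HK2 cells they summed to 41.9 to 43.5 and 93.0 to 103 CPM, with LUM at 10.5 ± 1.39 and 61.1 ± 4.24. The 14 kidney epithelium markers summed to 2498 to 2540 CPM in ACHN shNC and 1793 to 1959 in Dsh libraries, and to 3067 to 3191 and 1717 to 1832 CPM in HK2, chiefly the keratins. Of the 5 clear cell carcinoma markers, in ACHN Dsh cells ANGPTL4 rose (5.68 on the log2 scale), VEGFA (-0.61), NDUFA4L2 (-1.01) and EGLN3 (-1.21) fell, and CA9 was not tested. In HK2 Dsh cells ANGPTL4 (3.69), CA9 (3.48) and VEGFA (1.47) rose, EGLN3 fell (-0.87) and NDUFA4L2 was not called (0.84 ± 0.36, adjusted p = 0.0552). The 8 immune markers were at 1.67 to 2.99 CPM in ACHN shNC and 2.71 to 3.24 in Dsh libraries, at 6.54 to 7.44 and 5.75 to 7.96 CPM in HK2, and the 5 endothelial markers stayed under 2 CPM in sum in every library. In bulk RNA, fewer cells of a kind and less RNA per cell cannot be told apart.

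The pattern of IL11 over the 12 HK2 libraries was compared with that of 11855 genes that reached a mean of 5 CPM in an HK2 group, by the Pearson correlation of log2(CPM + 1) and as a description only, since the libraries share their groups. The 5 most alike were P2RY6 (r = 0.989), a receptor for UDP, EXT2 (r = 0.987), a heparan sulfate polymerase, SFXN3 (r = 0.985), a mitochondrial serine carrier, KCNN4 (r = 0.985), a calcium-activated potassium channel, and GYPC (r = 0.979), a glycophorin. Without shKDM5C replicate 1, r of these 5 genes ran from 0.966 to 0.989 over 11 libraries. P2RY6 was at 37.4 ± 0.755 CPM in shNC, 16.3, 24.1 and 25.5 in the shKDM5C libraries, 29.6 ± 1.83 in shYY1 and 65.8 ± 0.764 in Dsh cells. KCNN4 was at 9.95 ± 0.906 CPM in shNC, 1.57, 5.99 and 4.64 in the shKDM5C libraries, 8.45 ± 1.16 in shYY1 and 29.3 ± 3.51 in Dsh cells.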

How the data were processed

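RNA of ACHN and HK2 cells was extracted with TRIzol and made into libraries by the study with a NEBNext Ultra kit, which were sequenced as paired reads of 150 bases. The authors aligned them with HISAT2 2.0.5 and deposited counts of read pairs for 60675 Ensembl genes (release 84, GRCh38), counted with featureCounts. The file headers name featureCounts 2.0.1, with paired reads and no strand option, and the submitters' processing notes give 1.5.0-p3. Because strand was not used, reads from overlapping genes on opposite strands cannot be separated. Totals of 15926561 to 24272298 counts limit genes of a few counts, and floors for a count of 0 (3 counts) cover counting error only.

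From the deposited counts, each comparison was fitted over the libraries of its own groups with edgeR 4.0.16 in R 4.3.3 (TMM scaling, filterByExpr, quasi-likelihood F test), and p-values were adjusted by Benjamini-Hochberg over all genes tested. The standard error is the log2 fold change divided by the square root of F, and the 95% interval is the normal one from it. The interaction used the 4 groups of a line, and the difference between lines the shNC and Dsh groups of both. A member was taken to pass in a group where all its libraries reached the count that filterByExpr asks for (10 at the median total). Scripts were tested on simulated data. The alternatives were DESeq2 1.42.0, RLE and total-count scaling, no filter, a minimum of 10 counts throughout a group, all groups in a fit, the replicate number as a block, each library left out, a prior count of 2 in place of 0.125, and a call rule of an unadjusted p under 0.05 with a log2 fold change of at least 1.5. The members and the pathway and marker lists were chosen with earlier results of these data known. The genes named were the 10 members, KDM5C and YY1, 10 receptors and antagonists set in the rule, the 5 genes most like IL11, and, from each pathway list and double knockdown, at most 3 genes that were called, changed by at least 1 on the log2 scale and averaged 5 CPM or more in the group with more. TNF and the cell type markers were named after their values were seen. Symbols came from a reference table that matched 56558 of the gene IDs, sequences from RefSeq, and windows shared by the CXCL transcripts from GENCODE v44. The counts over the list of other IL6 family ligands are not reported here.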

Additional observations from a re-analysis of the deposited data

Results flagged for a closer look

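For IL6, LIF, CXCL2, CXCL8 and CCL2 the response to the double knockdown was unequal in the lines by a test of the difference itself. The test was made with edgeR, adjusted over all genes, on the log2 fold change in ACHN minus that in HK2 cells. IL6 (1.42), CXCL2 (1.25), CXCL8 (1.37) and CCL2 (1.79) had the higher value in ACHN, and LIF (-0.66) the higher value in HK2. CXCL1 (2.26) passed the filter on low counts through ACHN cells only, so its difference is a description. It rested on few HK2 counts and on HK2 shNC replicate 3, as given above. IL11 (-3.68) was set apart because every double-knockdown library lay below its controls in ACHN and above them in HK2 cells, and this difference was not tested.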

How the results depend on the processing

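Of 1702 refitted values of single genes, 1623 kept their side of the threshold, 60 lost a call and 19 gained one, 45 of the losses on leaving out a library. IL11 in comparisons with HK2 cells has no test. Its refitted values were counted as kept because they kept their sign and moved by less than the spread between replicates. The counts here take in the members that passed the filter on low counts through only some groups. No called value changed sign under the alternatives run, and 14 values that were never called, counted among the 1623, did. With a call at an unadjusted p under 0.05 and a log2 fold change of at least 1.5, the genes called became 1 (ACHN shKDM5C), 2 (ACHN shYY1), 5 (ACHN Dsh), 2 (ACHN Dsh against shKDM5C), 1 (ACHN interaction), 1 (HK2 shYY1), 1 (HK2 Dsh), 1 (HK2 Dsh against shYY1), 2 (ACHN against HK2 shNC) and 3 (difference between lines). The gene of HK2 Dsh and of HK2 Dsh against shYY1 was IL1B, which passed through Dsh only. Also passing through only some groups were IL1B in HK2 shKDM5C, and IL11 in ACHN Dsh and in ACHN Dsh against shYY1. The same held for IL1B and CXCL1 in the difference between lines and for CXCL1 between the shNC cells. HK2 shKDM5C, with 1 gene called, gave 3 with DESeq2, 0 with total counts, 2 with no filter on low counts and 3 with all groups in the fit. All groups in the fit also gave 1 for HK2 shYY1, 4 for HK2 Dsh and 3 for HK2 Dsh against shYY1, a fit that takes in the spread of HK2 shKDM5C replicate 1. With a library left out, the genes called ranged from 0 to 5 for HK2 shKDM5C, 2 to 5 for HK2 Dsh against shKDM5C, and 1 to 4 for the HK2 interaction. The cause was not tested.

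The repeat numbers did not pair the libraries, as deviations of same-numbered libraries correlated at -0.11 to 0.11 in ACHN and -0.34 to 0.12 in HK2 cells. With the replicate number as a block, 0 genes were called for HK2 shKDM5C, 2 single-gene calls were lost in all, and no other call changed. Genes of a few counts (IL1A, and IL1B in ACHN or CXCL1 in HK2 cells) had too few for a test within the line. Whether depth or low expression limited them was not tested.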
